A study of Mus musculus with 15 samples.

Results

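The 10 genes described here, Atf4, Ddit3, Trib3, Asns, Chac1, Psat1, Phgdh, Slc7a11, Atf3 and Sesn2, are the transcription factor of the amino acid stress response and 9 genes known as its targets. They were chosen by gene symbol and are 10 of the 21662 genes counted. RNA-seq libraries, 15 in all, were made from mouse embryonic stem cells (ESC) of a mixed 129Sv-C57Bl/6 background. They were made to ask what losing the chromatin protein Hmga1 does to gene expression. In the KO experiment, WT cells (3 libraries, a to c) were set beside a Hmga1 KO line (2, a and b) and its Hmga1 and Hmga2 add-back lines (2 each, a and b). The KO was 1 clone with a Cas9-induced frameshift. Each add-back was made in KO cells, so it carries the KO allele too, and expressed a biotin-tagged cDNA from the ubiquitous CAG promoter at a single integration site. The letters a, b and c marked library preparation day and flow cell, and are called batches below. In a second experiment, sequenced on 1 lane, 3 WT libraries (WT2 a to c) were set beside 3 of a clone from which the Hmga1 coding sequence had been cut out (full deletion a to c). Medium for all lines held serum, LIF, glutamine, nonessential amino acids and beta-mercaptoethanol.

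When amino acids run short, the kinase GCN2 phosphorylates the initiation factor eIF2, and general translation falls while the Atf4 mRNA is translated better. The ATF4 protein then pairs with C/EBP factors and raises transcription of genes for amino acid synthesis, uptake and redox balance, together with factors that feed back on the response. Other kinases that act on eIF2 respond to unfolded protein in the endoplasmic reticulum (ER), heme shortage and double-stranded RNA, so the program is also called the integrated stress response. Control of ATF4 is largely translational, and RNA-seq reads only its mRNA.

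The library totals ran from 13465399 to 34952136 gene counts, with a 2.60-fold range in the KO experiment and a 1.46-fold range in the other. Hmga1 itself stood between 307 and 359 CPM (counts normalised to the library's size) in WT2 and between 10.9 and 12.2 in the full-deletion libraries. WT of the KO experiment held 464, 277 and 212 CPM, KO 219 and 96.6, with 186 and 122 in the libraries labelled Hmga1 add-back, and 139 and 101 where Hmga2 was added back. A frameshift need not remove the RNA, so this is no check of the KO. The Hmga1 add-back libraries did not hold more Hmga1 RNA than KO (log2 fold change 0.04 ± 0.17 SE, adjusted p = 1, edgeR). A gene count does not part RNA of the KO allele from that of the added cDNA, so it cannot check that label. Protein was not measured in these files. Hmga2 did rise in the Hmga2 add-back, to 251 and 222 CPM against 19.1 and 13.9 in KO. All 8 ESC markers looked at stood at 40.9 CPM or higher in every library, while the 8 feeder fibroblast markers summed to between 3.09 and 18.1 CPM, of which Thy1 held the most in WT, and 1 to 5 of them were at 0. One library stood apart: WT2 b had a scaling factor of 0.76 where the other WT2 libraries had 0.99 and 0.98, and its counts differed from those of WT2 a and c by a chi-square of 137 and 131 per degree of freedom, against 5.76 between WT2 a and c. The fitted full-deletion values of the 10 genes and of the list genes named are therefore given with and without it. The difference between the full-deletion and KO effects is given with it only. In bulk RNA, fewer cells with a transcript and less of it per cell cannot be told apart.

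All 10 genes are protein-coding and lie, in NCBIM37 (mm9) coordinates, on 8 chromosomes. Atf4 is at chr15:80085614-80087970 on the plus strand, Ddit3 at chr10:126727830-126733344 (plus), Atf3 at chr1:192994175-193007219 (minus), Trib3 at chr2:152163158-152169768 (minus) and Chac1 at chr2:119176965-119180117 (plus). Asns is at chr6:7625169-7643254, Psat1 at chr19:15979168-16021827, Phgdh at chr3:98117093-98143913, Slc7a11 at chr3:50168858-50247535 and Sesn2 at chr4:132047947-132066416, all on the minus strand. Counts are over exons on the gene's own strand, and 1 random alignment was kept for reads that match several places. For 7 genes no 47-base stretch of an exon was found elsewhere in the genome. For Phgdh 53.8% of such stretches were found at 19 other loci, so its counts can be split with near-identical copies, and the shares were 5.39% for Slc7a11 and 0.51% for Psat1. Sesn2 overlaps the transcript Gm12981 on its own strand, which the counting cannot tell apart. Its counted length of 6686 bases is longer than the 3475 exonic bases of the annotation, and for Ddit3 the counted length of 871 is shorter than the annotated 1713.

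ATF4 and its C/EBP partners are known to bind a composite element with the letters TGATGNAA. It was searched on both strands from 250 bases before to 50 after the transcript start in RefSeq promoters (GRCm38.p6), where all 10 genes had an entry. Of all 32851 promoter windows 3.97% held it, and 5 of the 10 did: Trib3, Asns, Chac1, Slc7a11 and Atf3. The stretches before the start are printed with the element in capitals, read in the gene's own direction, so that an element on the other strand reads TTGCATCA. They are shown because the factor that defines this gene list binds such letters. Coordinates are those of GRCm38.p6.
Asns, chr6:7693210-7693252 (minus): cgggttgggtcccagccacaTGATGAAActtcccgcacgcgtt
Chac1, chr2:119351029-119351076 (plus): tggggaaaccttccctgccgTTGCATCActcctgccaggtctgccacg
Slc7a11, chr3:50443633-50443699 (minus): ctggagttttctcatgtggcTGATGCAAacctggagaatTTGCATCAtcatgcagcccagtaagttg
Atf3, chr1:191183416-191183463 (minus): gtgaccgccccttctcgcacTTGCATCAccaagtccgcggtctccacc
The element began 23 bases before the start in Asns, 193 in Chac1 and 110 in Atf3. Slc7a11 held a pair of them, at 66 and 47 bases before the start, in opposite orientation. In Trib3 it lay inside the transcript, 14 bases past the start. The letters TGACGTCA (cAMP response element) were in 1.79% of all windows and in 0 of the 10, and TGACNNNGC (antioxidant response element) in 12.4% of all and in 3 of the 10 (Asns, Phgdh and Sesn2). A match is a description of the sequence, and binding was not measured.

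Per kilobase of counted length, the genes spanned over 2 orders of magnitude. In the KO experiment (9 libraries) the mean level was 190 RPKM (CPM per kilobase) for Atf4, 153 for Asns, 139 for Psat1, 28.7 for Phgdh, 13.0 for Trib3, 12.8 for Sesn2, 8.43 for Ddit3, 6.78 for Chac1, 1.47 for Atf3 and 0.382 for Slc7a11. The ranges of 1 SD overlapped between neighbours from Atf4 to Psat1 and from Trib3 to Chac1, so these orders do not hold beyond the spread. Atf4 stood above 98.5% of all genes counted, while Slc7a11 stood above 41.3%. In the full-deletion experiment (6 libraries) the first 4 places and the last 2 were held by the same genes, and Ddit3 had moved up to the fifth place at 23.6 ± 11.4 RPKM (SD). The 3 highest genes were thus the factor itself and enzymes of asparagine and serine synthesis. Scaled separately in each experiment, WT2 held 2.68 times the Ddit3 CPM of WT (1.95 without WT2 b) and 0.15 times its Slc7a11 CPM (0.16 without WT2 b and 0.26 without WT b), which cannot be told apart from the difference between the experiments.

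**Figure D1:**
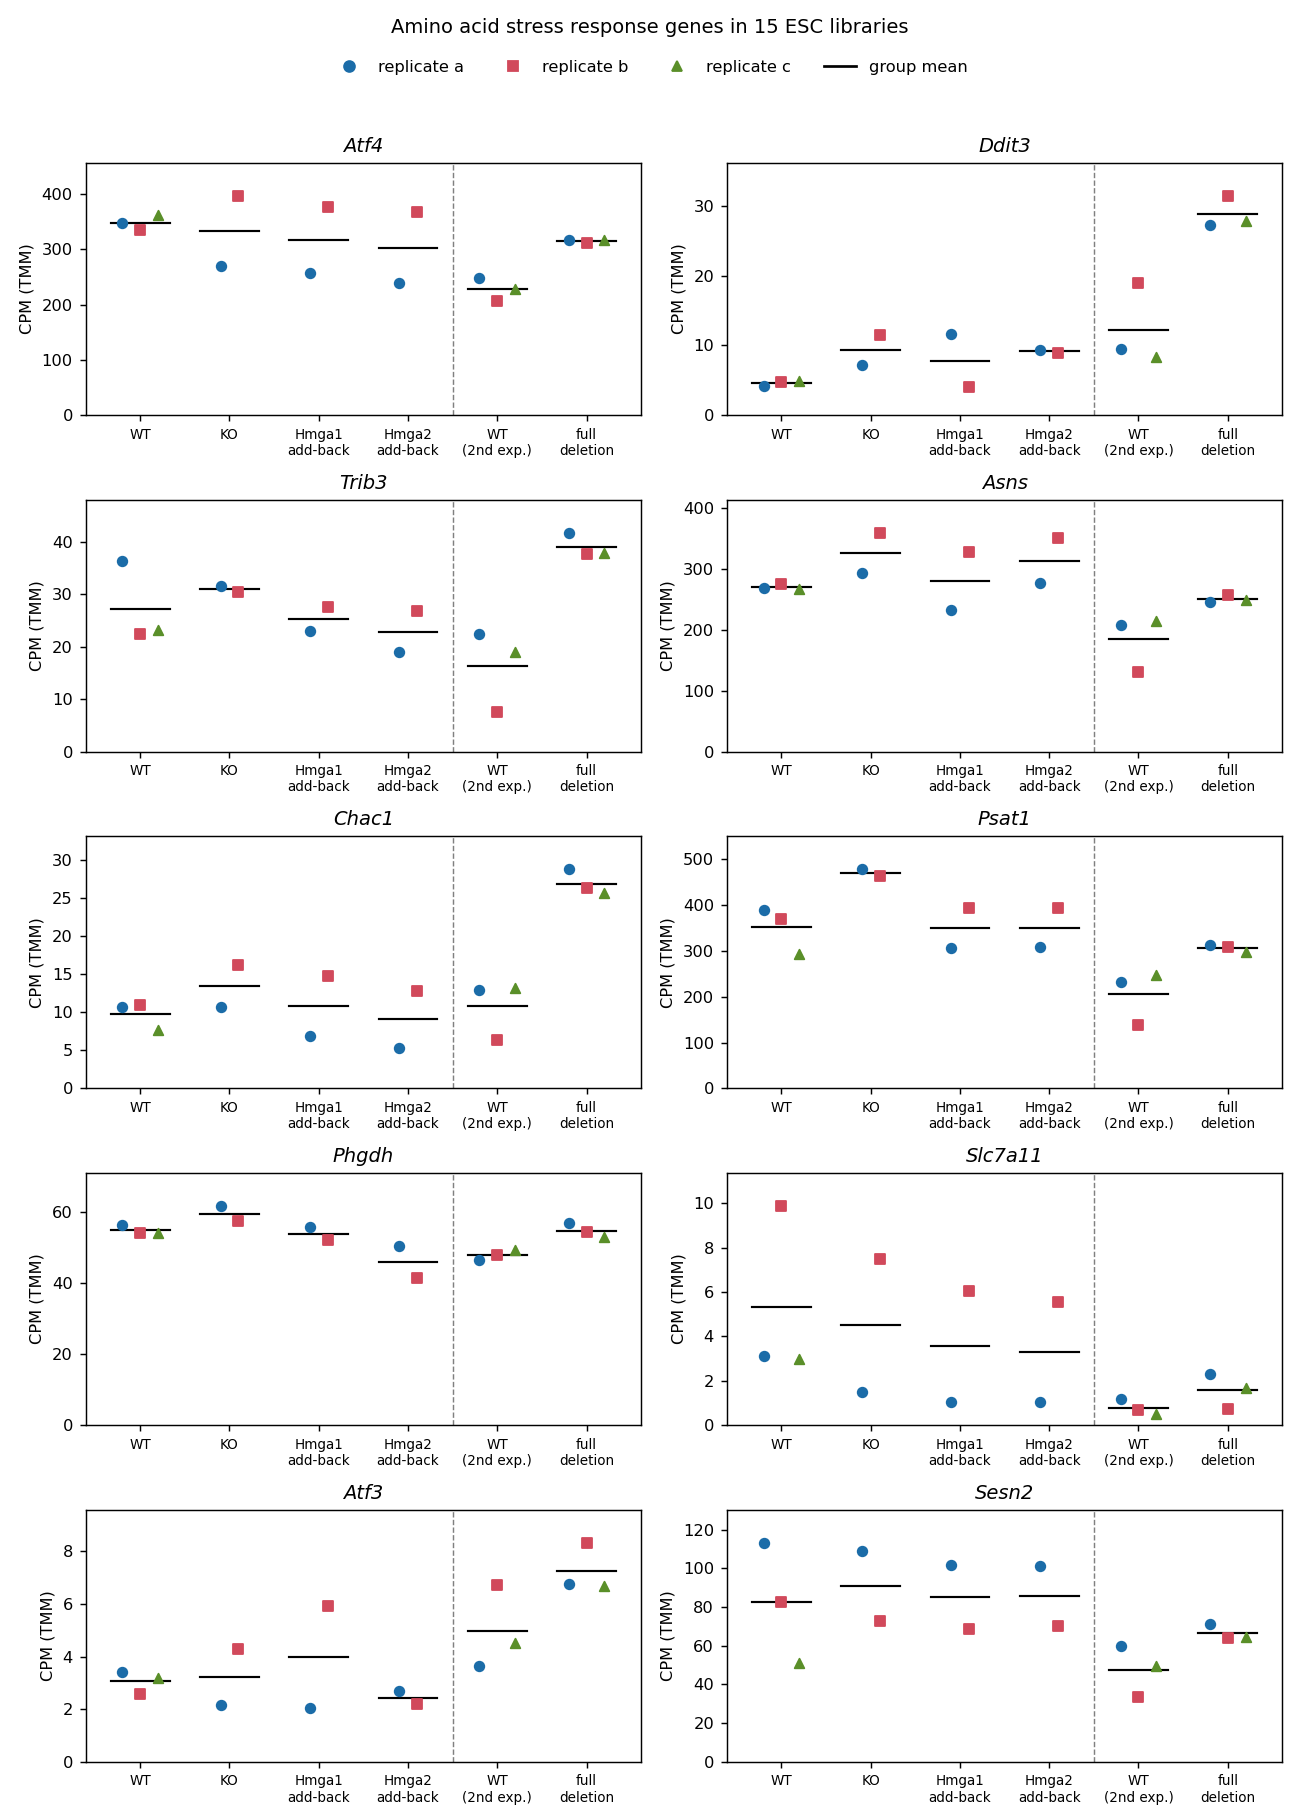
Normalised level of each of the 10 genes in CPM (linear axes from 0, counts scaled by TMM within each experiment) in all 15 libraries, with 1 point per library, shape and colour for the replicate letter and a line for the group mean; the dashed line parts the 2 experiments. All 3 full-deletion libraries lie above all 3 WT2 libraries for 8 genes, not for Slc7a11 and Atf3, as they do for 26.1% of all genes. Batch b lies above batch a in all 4 genotypes for Slc7a11, as it does for 25.2% of all genes.

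The full-deletion clone had higher fitted levels than WT2 for all 10 genes, by a median of 0.57 on the log2 scale, where the median over all 13098 genes tested was 0.04. By edgeR's quasi-likelihood test, Chac1, Ddit3 and Atf4 rose at an adjusted p under 0.05 (the wide call). Of all genes 8.25% passed this call, 4.47% upwards. At an adjusted p under 0.01 and a change of at least 2-fold (the strict call, with the thresholds of the study's methods), 0 of the 10 passed and 0.0687% of all genes did. Unadjusted p was under 0.05 for 7 of the 10, and for 37.0% of all genes. DESeq2 gave 4 wide and 3 strict calls among the 10, with 24.7% and 3.53% of all genes, and limma-trend 3 and 0, with 7.76% and 0.0687%. Full deletion lay wholly above WT2 for 8 of the 10, as it did for 26.1% of all genes, and lay above WT2 a and c for 9 of the 10 and 31% of all. The feeder markers also summed higher in full deletion (7.47 to 7.63 CPM) than in WT2 (3.09 to 6.54 CPM), with 4 or 5 of the 8 at 0, and their part in the result was not tested.

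Without WT2 b, the library that stood apart, 9 of the 10 passed the wide call, all upwards, and Slc7a11 did not (adjusted p = 0.136). This must be read against the other genes: 42.5% of the 13163 tested then passed, 20.5% upwards. Leaving out WT2 b thus raised the number called among these genes and among all genes. Between 0.49% and 4.43% of all genes had a larger log2 fold change than Ddit3, Chac1 and Trib3 in that fit, while for Asns the share was 28.2% and for Phgdh 32.6%. Without WT2 a, 3 of the 10 passed (Atf4, Trib3 and Chac1), as did 9.4% of all genes. Without WT2 c 0 of the 10 passed and 0.0305% of all genes did, and without full deletion a, b or c 0 of the 10 passed and 0.0228%, 0.023% and 0.023% of all genes did. The log2 fold changes of the 3 called genes then ran from 1.26 to 1.48 for Chac1, from 1.03 to 1.27 for Ddit3 and from 0.46 to 0.47 for Atf4 over these 4 fits, against 1.32, 1.25 and 0.47 with all 6 libraries.

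**Figure D2:**
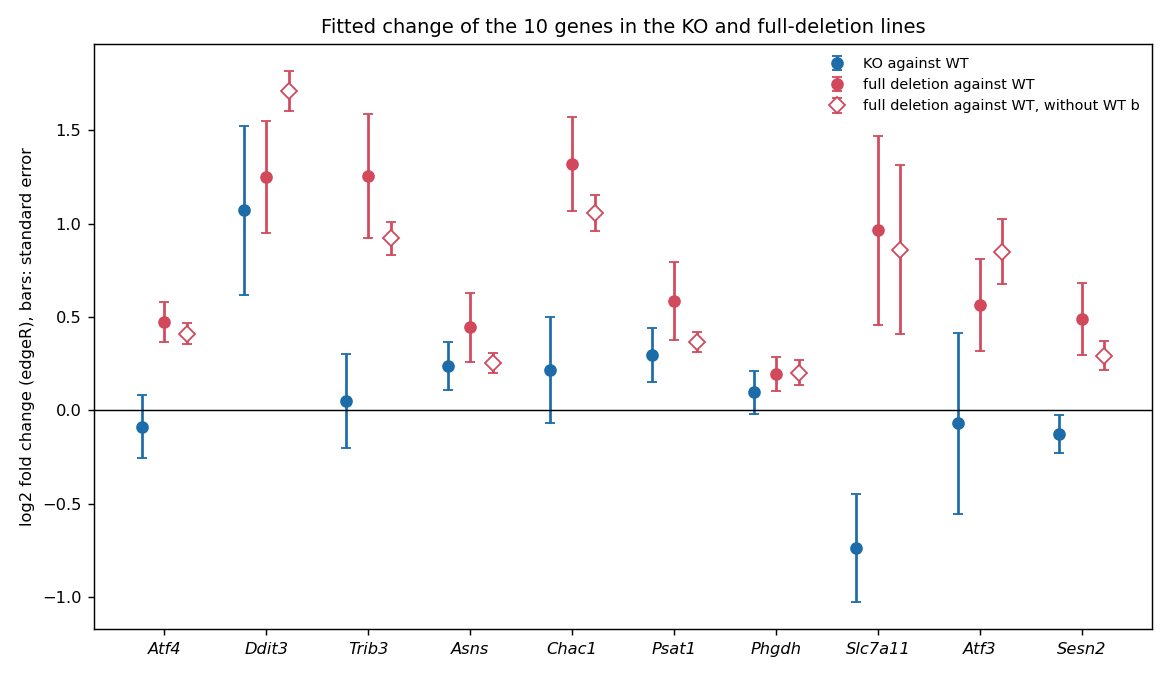
Fitted log2 fold change of each gene with its standard error (edgeR), for KO against WT (with batch in the fit), full deletion against WT2, and the latter without WT2 b (open diamonds, WT b in the key). Every full-deletion estimate lies above 0, while the KO estimates lie on both sides of 0, from -0.74 for Slc7a11 to 1.07 for Ddit3.

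Atf4, the factor at the head of the program, stood at 248, 206 and 229 CPM in WT2 and at 317, 311 and 316 in full deletion. It stood at 347, 336 and 362 in WT, at 271 and 397 in KO, at 257 and 377 in the libraries labelled Hmga1 add-back and at 240 and 367 in the Hmga2 add-back. The full-deletion libraries lay above all of WT2, and in the 3 KO-derived lines batch a lay below all WT libraries and batch b above them. Atf4 rose 1.39-fold in full deletion (log2 0.47 ± 0.11, adjusted p = 0.0433), and 1.33-fold without WT2 b (0.41 ± 0.05, adjusted p = 7.02e-06). In KO its log2 fold change was -0.09 ± 0.17 (adjusted p = 0.868), with -0.36 within batch a and 0.24 within batch b.

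Ddit3 encodes CHOP, a factor linked to cell death under lasting stress. It stood at 9.45, 18.9 and 8.33 CPM in WT2 and at 27.3, 31.5 and 27.8 in full deletion. Ddit3 stood at 4.14, 4.67 and 4.90 in WT, 7.12 and 11.5 in KO, 11.6 and 3.97 in the libraries labelled Hmga1 add-back and 9.39 and 8.87 in the Hmga2 add-back. Full deletion, KO and Hmga2 add-back lay above all of their WT libraries, and the Hmga1 add-back held the highest and the lowest value of its experiment. Ddit3 rose 2.37-fold in full deletion (log2 1.25 ± 0.30, adjusted p = 0.0478), and 3.27-fold without WT2 b, the WT2 library with the highest value. The call was lost with DESeq2's size factors (adjusted p = 0.0555, edgeR) and without WT2 a (adjusted p = 0.067). The fold in KO was 2.10 (log2 1.07 ± 0.45), at an unadjusted p of 0.0442 and an adjusted p of 0.387, so it did not pass. Counts behind the KO value were low, between 53 and 399 a library over the 9.

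Atf3, a stress-induced factor of the same bZIP family, had the lowest RPKM of the 3 transcription factors. WT2 stood at 3.63, 6.73 and 4.51 CPM and full deletion at 6.75, 8.33 and 6.68, so that WT2 b reached into the full-deletion range. WT stood at 3.41, 2.57 and 3.19, KO at 2.16 and 4.28, the libraries labelled Hmga1 add-back at 2.03 and 5.91 and the Hmga2 add-back at 2.69 and 2.18. These groups overlapped, on 31 to 108 counts a library. Neither full deletion (log2 0.56 ± 0.25, adjusted p = 0.141) nor KO (-0.07 ± 0.48, adjusted p = 0.969) passed, and without WT2 b the full-deletion value was 0.85 ± 0.17 (adjusted p = 0.000602).

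Trib3 encodes a pseudokinase that binds ATF4 and CHOP and restrains them. It stood at 22.4, 7.64 and 19.0 CPM in WT2 and at 41.7, 37.6 and 37.8 in full deletion, without overlap. For the frameshift line and its derivatives, WT stood at 36.2, 22.4 and 23.1, KO at 31.5 and 30.4, the libraries labelled Hmga1 add-back at 22.9 and 27.6 and the Hmga2 add-back at 19.0 and 26.7. KO lay within the WT range and both add-backs below KO. The full-deletion fold was 2.38 (log2 1.25 ± 0.33), with an adjusted p of 0.056 that just missed the wide call. It passed without the filter on low counts, by DESeq2, and without WT2 a or b (1.89-fold without WT2 b).

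Chac1 encodes an enzyme that breaks down glutathione. WT2 held 12.8, 6.31 and 13.1 CPM and full deletion 28.7, 26.3 and 25.6. WT held 10.7, 11.0 and 7.66, KO 10.6 and 16.2, the libraries labelled Hmga1 add-back 6.85 and 14.7 and the Hmga2 add-back 5.35 and 12.7. Full deletion lay above all of WT2, and the other groups overlapped with WT. The 2.49-fold rise in full deletion (log2 1.32 ± 0.25, adjusted p = 0.0334) had the lowest adjusted p of the 10, and was 2.08-fold without WT2 b. In KO the log2 fold change was 0.22 ± 0.28 (adjusted p = 0.799).

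Sesn2, whose protein senses leucine for the mTORC1 pathway and which p53 also induces, stood at 59.8, 33.5 and 49.4 CPM in WT2 and at 71.1, 63.8 and 64.7 in full deletion. In WT it spread from 51.2 (c) over 82.5 (b) to 113 (a), with 109 and 72.7 in KO, 102 and 68.4 in the libraries labelled Hmga1 add-back and 101 and 70.3 in the Hmga2 add-back. Each a library was above its b library in each of the 4 genotypes, and WT c was the lowest of the 9. Full deletion lay above WT2 (log2 0.49 ± 0.19, adjusted p = 0.116), and KO differed by -0.13 ± 0.10 (adjusted p = 0.636). The value without WT2 b was 0.29 ± 0.08 (adjusted p = 0.00582).

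Asns encodes asparagine synthetase. WT2 stood at 208, 131 and 215 CPM and full deletion at 246, 257 and 249. WT libraries were within 267 to 274, KO at 293 and 360, those labelled Hmga1 add-back at 233 and 328 and the Hmga2 add-back at 277 and 350. Full deletion, KO and Hmga2 add-back each lay above all of their WT libraries. The log2 fold change was 0.45 ± 0.18 in full deletion (adjusted p = 0.125) and 0.24 ± 0.13 in KO (adjusted p = 0.485). Without WT2 b the former fell to 0.26 ± 0.05, a ratio of 1.19, and passed (adjusted p = 0.000702).

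Phgdh and Psat1 catalyse successive steps of serine synthesis. Psat1 stood at 232, 137 and 247 CPM in WT2 and at 314, 309 and 299 in full deletion. Values were 390, 371 and 293 in WT, 479 and 463 in KO, 306 and 393 in the libraries labelled Hmga1 add-back and 308 and 393 in the Hmga2 add-back. KO was above all other libraries of its experiment. Psat1 differed by 0.58 ± 0.21 on the log2 scale in full deletion (adjusted p = 0.093, and 0.37 ± 0.05 without WT2 b) and by 0.30 ± 0.14 in KO (adjusted p = 0.437).

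Phgdh varied least of the 10 within both experiments, with a highest-to-lowest ratio of 1.49 and 1.23. WT2 stood at 46.3, 47.9 and 49.4 CPM and full deletion at 57.0, 54.4 and 52.9. WT stood at 56.4, 54.1 and 54.1, KO at 61.7 and 57.4, the libraries labelled Hmga1 add-back at 55.6 and 52.0 and the Hmga2 add-back at 50.4 and 41.5. Full deletion and KO lay above their WT libraries and the Hmga2 add-back below them. The log2 fold change was 0.20 ± 0.09 in full deletion (adjusted p = 0.153) and 0.10 ± 0.11 in KO (adjusted p = 0.77). Without WT2 b the former was 0.20 ± 0.07 and passed (adjusted p = 0.0237). Reads shared with copies could bear on both values, which was not tested.

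Slc7a11, the transporter that brings in cystine in exchange for glutamate, is also driven by NRF2. It was lowly expressed: WT2 stood at 1.19, 0.667 and 0.484 CPM (25, 11 and 10 counts) and full deletion at 2.29, 0.734 and 1.68. Of the first experiment, batch a and b stood at 3.10 and 9.88 in WT, 1.50 and 7.49 in KO, 1.04 and 6.06 in the libraries labelled Hmga1 add-back and 1.05 and 5.56 in the Hmga2 add-back, and WT c stood at 2.99. Within each batch, WT held the highest value and both add-backs lay below KO. The log2 fold change was 0.96 ± 0.50 in full deletion (adjusted p = 0.199) and -0.74 ± 0.29 in KO (adjusted p = 0.365). Without WT2 b the former was 0.86 ± 0.45 (adjusted p = 0.136).

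With batch in the fit, WT c was the only library of its batch and added nothing to a contrast, so comparisons in the KO experiment rest on batches a and b. In KO against WT, 0 of the 10 passed the wide call and 0 the strict call by edgeR, as also by DESeq2 and limma-trend. The backgrounds over the 13912 genes tested were 0.0647% and 0.0216% by edgeR and by limma-trend, and 1.43% and 0.546% by DESeq2. Unadjusted p was under 0.05 for Ddit3 and Slc7a11, against 12.6% of all genes. The median log2 fold change of the 10 was 0.07, against -0.01 over all genes. KO lay wholly above WT for Ddit3, Asns, Psat1 and Phgdh, as it did for 14% of all genes.

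The add-backs share the WT and KO libraries with that comparison. Against WT, the lines labelled Hmga1 add-back had 0 wide and strict calls among the 10 by edgeR, DESeq2 and limma-trend. The wide and strict backgrounds were 0.0431% and 0.0144% by edgeR, 1.44% and 0.546% by DESeq2, and 0.108% and 0.0144% by limma-trend. By edgeR 1 unadjusted p was under 0.05 (Slc7a11, log2 -1.13 ± 0.29), against 13.3% of all genes. The Hmga2 add-back likewise had 0 and 0 by each tool. Its backgrounds were 0.165% and 0.0647% by edgeR, 2.36% and 0.769% by DESeq2, and 0.173% and 0.0647% by limma-trend. By edgeR 3 were at an unadjusted p under 0.05: Ddit3 (1.06 ± 0.45), Phgdh (-0.27 ± 0.11) and Slc7a11 (-1.20 ± 0.30), against 16.9% of all genes. Without WT b, 1 gene (Slc7a11, -1.51) passed in the former and 3 (Slc7a11, Atf4 and Trib3, all lower) in the latter. All genes called then rose from 6 to 806 and from 23 to 1312. WT a was then the only WT library behind these values, and leaving out WT a instead gained no call. In the Hmga2 add-back, Atf4 differed from WT by -0.54 within batch a and 0.13 within batch b. Trib3 differed by -0.93 and 0.25, and Slc7a11 by -1.56 and -0.83.

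Against KO, 9 of the 10 had lower fitted levels in the libraries labelled Hmga1 add-back and 10 of the 10 in the Hmga2 add-back, with medians of -0.23 and -0.31, against 0.01 and 0.00 over all genes. None passed by edgeR, DESeq2 or limma-trend: 0 wide and 0 strict calls for either. The edgeR backgrounds were 0% and 0% for the former and 0.0144% and 0.00719% for the latter. DESeq2 called 0.0863% and 0.0144% of all genes for the former, and 0.137% and 0.0719% for the latter. With limma-trend the shares were 0% and 0%, and 0.0359% and 0.0144%. By edgeR, Psat1 was the single gene with an unadjusted p under 0.05 in the former (log2 -0.43 ± 0.14, adjusted p = 1), against 2.80% of all genes. In the latter Phgdh (-0.37 ± 0.11) and Psat1 (-0.43 ± 0.14) were under 0.05, each with an adjusted p of 0.877 by edgeR, and 5.09% of all genes were. Trib3, Psat1 and Phgdh lay wholly below KO in both add-backs, as did 7.25% of all genes in the former and 10.4% in the latter. Both sets of values share the same KO libraries.

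Whether the 2 losses of Hmga1 differed was tested directly, as the difference between the full-deletion and KO effects over all 15 libraries. The difference was above 0 for 10 of 10, with a median of 0.58 against 0.04 over all genes. These values share the same libraries, WT2 b among them, so the 10 are not independent. None passed by edgeR or in any of 22 alternatives, which included DESeq2, limma-trend and leaving out WT2 b. Wide and strict backgrounds over 13671 genes were 0.307% and 0.0951% by edgeR, 2.41% and 0.797% by DESeq2, and 0.293% and 0.0731% by limma-trend. With all libraries, the difference was largest for Slc7a11 (log2 1.69 ± 0.61, adjusted p = 0.232), Trib3 (1.19 ± 0.47, adjusted p = 0.249) and Chac1 (1.10 ± 0.41, adjusted p = 0.238). For Ddit3, the gene with the highest fold in KO, it was 0.16 ± 0.60 (adjusted p = 0.889). Unadjusted p was under 0.05 for 5 of the 10, against 18.4% of all genes. Clone, sequencing run and allele differ together between the lines and cannot be told apart.

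Between batches b and a, 5 of the 10 passed the wide call, where 35.6% of all genes did: Atf4, Asns, Chac1 and Slc7a11 rose in b (18.6% of all genes did) and Sesn2 fell (17.1%). A single gene, Slc7a11, passed the strict call, as did 2.34% of all genes. Slc7a11 was 4.64-fold higher in batch b (log2 2.21 ± 0.21, adjusted p = 0.00083), and 0.10% of all genes had a larger value. It was up in each genotype, by 1.68 in WT, 2.32 in KO, 2.54 in the libraries labelled Hmga1 add-back and by 2.41 in those of the Hmga2 add-back. Sesn2 fell by 0.53 ± 0.07 (adjusted p = 0.00225), and lay between -0.46 and -0.59 in every genotype. Without any 1 of the KO or add-back libraries, 2 of the 10 passed, Slc7a11 and Sesn2, and 18% to 19.4% of all genes did. Atf4 then lay between 0.36 and 0.38, Asns between 0.23 and 0.30 and Chac1 between 0.59 and 0.81 on the log2 scale. Without KO a or KO b, which left 1 KO library, Slc7a11 did not pass the strict call. Its log2 value lay between 2.11 and 2.18 over the 6 fits that left out 1 KO or add-back library. Batch b libraries held less depth, at 13465399 to 14585417 counts against 30742898 to 34952136 in batch a, and feeder markers summed to 5.29 to 11.2 CPM in b and 9.53 to 18.1 in a, whose part was not tested.

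For Atf4, Asns and Chac1 the batch difference was near 0 in WT and larger in the 3 KO-derived lines. Atf4 differed by -0.05 in WT and by 0.55, 0.55 and 0.62 in KO and the 2 add-backs. Chac1 differed by 0.04 in WT and by 0.61, 1.10 and 1.25. Asns differed by 0.03 and by 0.30, 0.50 and 0.34. Trib3 was not near 0 in WT, at -0.69, and differed by -0.05, 0.27 and 0.50 in the derived lines. With 1 library per genotype and batch, each genotype's own difference could not be tested. The 3 KO-derived lines were set against WT in 1 fit over the 8 libraries of batches a and b, a test added after these values were seen, with 2 residual degrees of freedom. Its WT side was the 1 pair of WT a and WT b. The 3 derived lines came from 1 KO clone, so they are not independent replicates. The batch difference was larger in the derived lines by 0.64 ± 0.16 for Atf4 (adjusted p = 0.216, edgeR), by 0.96 ± 0.33 for Chac1 (adjusted p = 0.309) and by 0.37 ± 0.17 for Asns (adjusted p = 0.411). For Trib3 the value was 0.95 ± 0.25 (adjusted p = 0.225, edgeR), and it was below 0 for Ddit3, Phgdh and Sesn2. None of the 10 passed by edgeR, DESeq2 or limma-trend, where 0.0144%, 0.921% and 0.0432% of all genes did. By edgeR, 3 of the 10 had an unadjusted p under 0.05 (Atf4, Trib3 and Chac1), against 12.9% of all genes. Ddit3 went both ways, from -1.55 in the Hmga1 add-back to 0.69 in KO. In all, 3 of the 10 were above in b in each of the 4 genotypes and 2 below, against 25.2% and 26.1% of all genes.

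**Figure D3:**
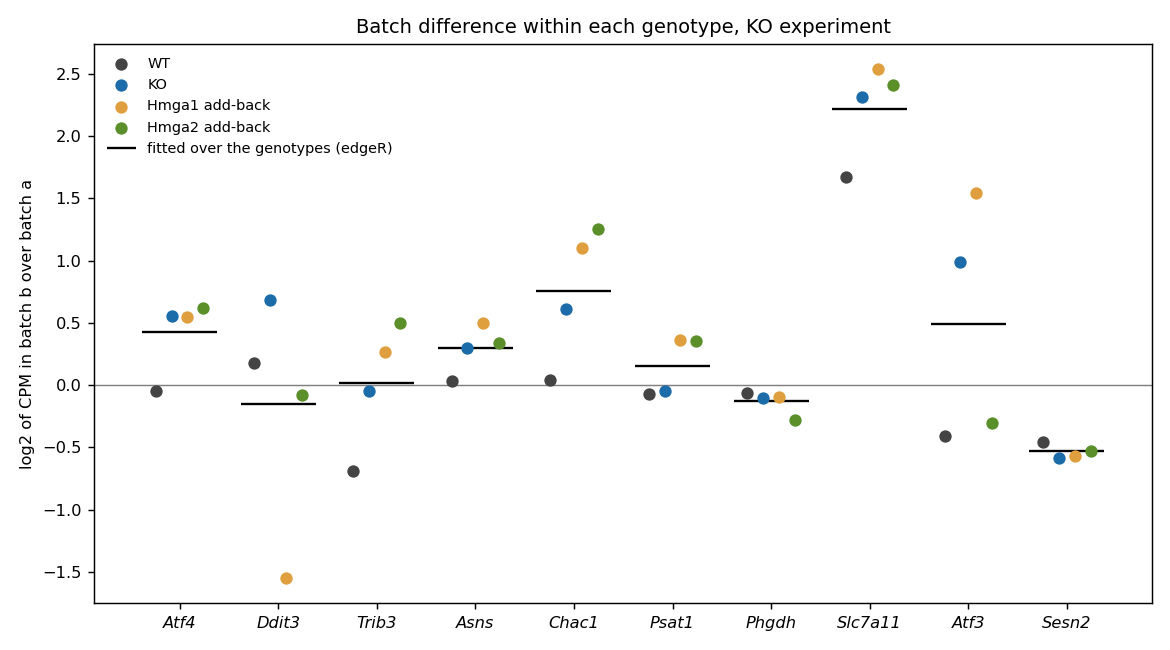
Log2 ratio of CPM in batch b to batch a for each gene within each genotype of the KO experiment (1 library per point), with the value fitted over the genotypes as a black line. Slc7a11 is above 0 and Sesn2 below 0 in all 4 genotypes, while Atf4, Asns and Chac1 are close to 0 in WT and higher in the KO-derived lines.

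Related genes were looked at in 8 lists, which hold 87 genes with Slc7a11 (NRF2 targets) and Sesn2 (p53 targets) among them. In full deletion against WT2, 8 of the 87 passed the wide call, 7 of them upwards, where 8.25% of all genes passed. DESeq2 called 26 and limma-trend 8. By list, the DESeq2 counts were 1 of 8 eIF2 kinase and phosphatase genes, 3 of 8 ATF4 partners, 4 of 9 transporters, 5 of 12 synthesis enzymes, 3 of 20 synthetases, 6 of 12 ER genes, 0 of 8 NRF2 targets and 4 of 10 p53 targets, where 24.7% of all genes were called. The limma-trend counts equalled those of edgeR in every list.

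Of the kinases and phosphatase regulators that act on eIF2, 1 of 8 passed: Impact, an inhibitor of GCN2 activation, rose (log2 0.53 ± 0.13, adjusted p = 0.0496), and the list's median was -0.13. Among ATF4 partners and feedback factors 2 of 8 rose, Cebpb, a dimer partner of ATF4 (1.40 ± 0.22, adjusted p = 0.0248), and Ddit4, an inhibitor of mTORC1 (1.37 ± 0.26, adjusted p = 0.0322). The median of these 8 was 0.24. Cebpb went from 2.61 to 4.58 CPM in WT2 to 8.16 to 10.5 in full deletion, and Ddit4 from 2.42 to 4.85 to 8.03 to 9.58.

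Of the amino acid transporters 2 of 9 rose, the neutral amino acid carriers Slc1a4 (1.04 ± 0.15, adjusted p = 0.0216) and Slc1a5 (0.96 ± 0.23, adjusted p = 0.0485), with a median of 0.30. Of the serine, one-carbon and amino acid synthesis enzymes 1 of 12 rose, Pycr1, the last enzyme of proline synthesis (0.88 ± 0.18, adjusted p = 0.0366), with a median of 0.25. None of the 20 cytosolic aminoacyl-tRNA synthetases passed by edgeR or limma-trend, while DESeq2 called 3 and 3 stood at an unadjusted p under 0.05. Their median was 0.02, below that of all genes.

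Among ER chaperones and other genes of the unfolded protein response 1 of 12 rose, Herpud1, which acts in degradation of ER proteins (1.13 ± 0.23, adjusted p = 0.0356), while the median was -0.10 and the main chaperone Hspa5 stood at -0.30 ± 0.11 (adjusted p = 0.104). The 12 values ran from -0.53 to 1.13, with 5 of them above 0. Of the NRF2 targets 0 of 8 passed by edgeR, DESeq2 or limma-trend, and 0 had an unadjusted p under 0.05 (median 0.11). Of the p53 targets 1 of 10 passed, Perp, which fell (-0.81 ± 0.18, adjusted p = 0.0419), though the median was 0.40.

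**Figure D4:**
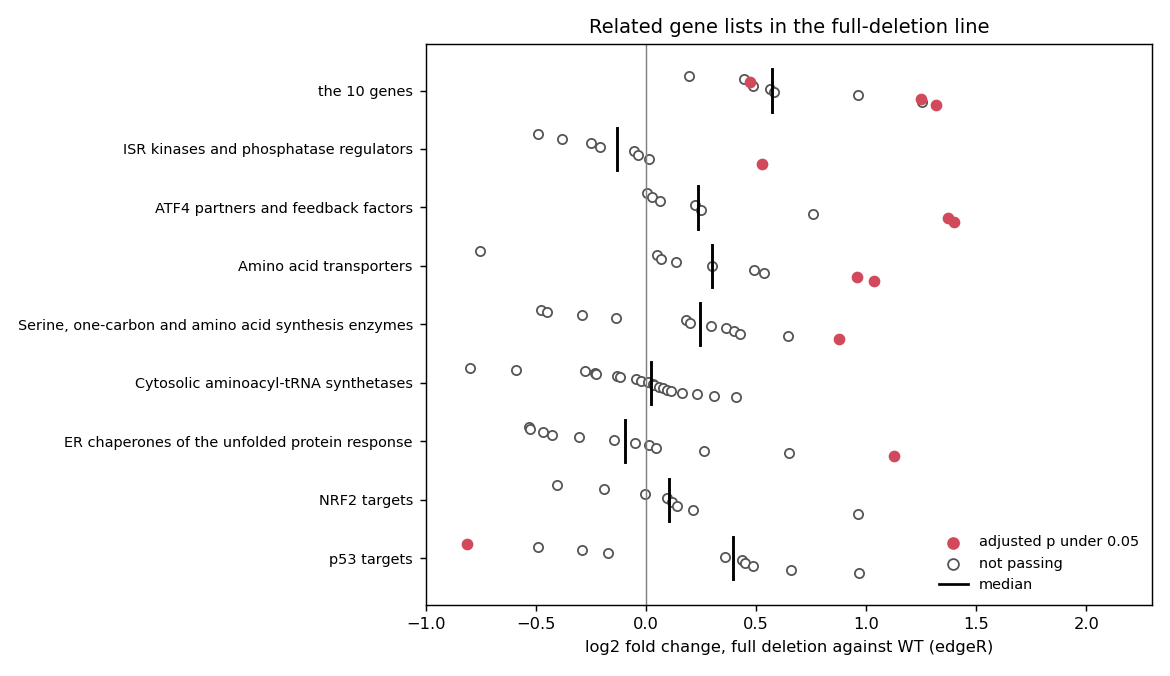
Log2 fold change in full deletion against WT2 (edgeR) of each gene in the 8 related lists and of the 10 genes, with 1 point per gene, filled where the adjusted p is under 0.05, and a bar at each list's median. The 10 genes lie wholly above 0 with a median of 0.57. The synthetases (median 0.02, from -0.80 to 0.41) and the ER chaperones (median -0.10, from -0.53 to 1.13) lie on both sides of 0.

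Without WT2 b, an alternative added after this library was seen to stand apart, the lists had more calls in both directions, as all genes did. In that fit 42.5% of all genes passed the wide call, 20.5% upwards and the rest downwards. ATF4 partners rose in 5 of 8 and fell in 0, transporters rose in 5 of 9 and fell in 1, and synthesis enzymes rose in 6 of 12 and fell in 3. Synthetases rose in 3 of 20 and fell in 4, ER genes rose in 3 of 12 and fell in 5, and p53 targets rose in 5 of 10 and fell in 3. The eIF2 kinase list rose in 1 of 8 and fell in 2, and NRF2 targets rose in 0 of 8 and fell in 1. The lists' medians were 0.44 for ATF4 partners, 0.16 for transporters, 0.18 for synthesis enzymes, 0.00 for synthetases, -0.11 for the eIF2 kinase list, -0.07 for ER genes, 0.03 for NRF2 targets and 0.24 for p53 targets, against 0.03 for all genes. The genes named above kept their direction and passed: log2 0.41 for Impact, 1.24 for Cebpb, 1.69 for Ddit4, 0.90 for Slc1a4, 0.74 for Slc1a5, 0.71 for Pycr1, 0.89 for Herpud1 and -0.61 for Perp. Hspa5, which had not passed with all 6 libraries, stood at -0.24 ± 0.05 and passed (adjusted p = 0.000638, edgeR).

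In the KO experiment, 0 of the 87 list genes passed the wide call in KO against WT by edgeR (22 at an unadjusted p under 0.05, 2 by DESeq2 and 0 by limma-trend, where 12.6%, 1.43% and 0.0647% of all genes were). For the lines labelled Hmga1 add-back against WT the counts were 0, 12, 0 and 0 in the same order, and for the Hmga2 add-back 0, 16, 2 and 0, with 13.3% and 16.9% of all genes at an unadjusted p under 0.05 and 1.44% and 2.36% called by DESeq2. Against KO they were 0, 11, 1 and 0 for the Hmga1 add-back and 0, 18, 0 and 0 for the Hmga2 add-back, where unadjusted p was under 0.05 for 2.80% and 5.09% of all genes and DESeq2 called 0.0863% and 0.137%. For the difference between the 2 losses they were 0, 22, 2 and 0, against 18.4% and 2.41% of all genes. Between batches 33 of the 87 passed, against 35.6% of all genes. The batch calls went both ways in most lists: synthetases rose in 5 and fell in 2 of 20, and ATF4 partners rose in 2 and fell in 3 of 8. Slc7a11 was alone among the NRF2 targets in rising in batch b, while 4 of the 8, led by Hmox1 (-0.74 ± 0.14, adjusted p = 0.00679), fell. Of the p53 targets 4 of 10 fell, Sesn2 among them, with the cell cycle inhibitor Cdkn1a at -1.43 ± 0.29 (adjusted p = 0.0074).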

How the data were processed

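Total RNA, less its rRNA, went into stranded single-end libraries. The authors called bases with bcl2fastq 2.17, aligned reads of 50 bases, less the first 3, to mm9 with Bowtie through QuasR and counted same-strand reads per UCSC gene. The deposited values are raw counts per gene, with no normalization.

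Counts were tested with edgeR 4.0.16 (TMM scaling, quasi-likelihood, Benjamini-Hochberg over every gene whose mean count reached 10) in R 4.3.3, with batch as a term in the KO experiment and none in the other. Standard errors are the log2 fold change over the root of F. limma 3.58.1, the study's tool, and DESeq2 1.42.0 were alternatives, with other scalings, filters and leave-outs. Scripts were tested on simulated data. Independent cultures were harvested on different days, but which libraries came from which culture is not stated. The batch letters come from the study, and same-letter deviations correlated at 0.15 to 0.76. Full-deletion letters do not pair. The members and lists were chosen with earlier results of these data known. All 10 members are named, and up to 4 passing genes per list by adjusted p; Hspa5, Hmox1 and Cdkn1a were picked after their values were seen.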

Additional observations from a re-analysis of the deposited data

How the results depend on the processing

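Over 80 results for the 10 genes and 1369 alternatives, 1320 kept their side of the wide call, 35 lost it, 14 gained it and 0 called values changed sign. The sign changed in 62 where neither value passed. Counts of the 10 at the wide call were 3 in full deletion against WT, and ranged from 0 to 9 when 1 library was left out (9 without WT2 b, 0 without WT2 c or any full-deletion library). All genes called then ranged from 3 to 5592, against 1080. The strict count of 0 became 3 by DESeq2, where 3.53% of all genes passed, and 2 without WT2 b (Ddit3 and Chac1). With any other library left out the count stayed at 0. Over the 13 alternatives, strict calls among all genes ran from 1 to 463, against 9. Of 5 batch calls, 2 to 5 were kept. The strict call of Slc7a11 was lost without KO a or b, which left 1 KO library. Its log2 value lay between 2.11 and 2.18 over the 6 fits without 1 KO or add-back library. Leaving out WT b moved the counts against WT from 0 to 1 for the Hmga1 add-back and to 3 for the Hmga2 add-back (ranges 0 to 1 and 0 to 3). WT a was then the only WT library behind these contrasts. Summed counts as scaling moved the median of all genes from 0.04 to 0.32 in full deletion and from -0.03 to -0.15 between batches, and Atf4 and Asns then missed the batch call (adjusted p = 0.0688 and 0.135) while Phgdh gained it (-0.25, adjusted p = 0.0466). The cause of these changes was not tested, except that fewer samples were fitted.

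Replicate letters in the full-deletion experiment pair nothing: same-letter correlations were 0.06, 0.07 and -0.05. With the replicate block, Chac1 and Ddit3 kept the wide call and Atf4 lost it (adjusted p = 0.0704, edgeR). The log2 fold change of Atf4 was 0.48 with the block and 0.47 without it. Leaving the batch block out of the KO experiment changed no call for the 10. Depth limits the low genes: the libraries held 10 to 127 counts of Slc7a11.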

Other observations

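Over the 6 libraries of the full-deletion experiment, the gene outside the 10 whose log2 CPM followed their mean most closely was Slc1a4 (Pearson r = 0.9997, Spearman rho = 1), ahead of Urgcp, Rimkla, Tes and Cryzl1 (0.996 to 0.998). These points share the clone difference and WT2 b, and 1544 of 13088 genes had r above 0.9. Over the 9 libraries of the KO experiment, Rlbp1 (0.985, rho 0.933), Pgam1 (0.955), Mettl15 (0.950), Kntc1 (0.940) and Tpst1 (0.929) led, and 31 of 13902 genes were above 0.9. These values are descriptions, chosen as the highest of many.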
